A study of Mus musculus with 27 samples.

Results

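Transcripts of 10 genes that mark the liver sinusoidal endothelium were followed across the livers of 27 male C57BL/6 mice on 9 diets, with n = 3 mice per diet and 1 Affymetrix Mouse 430 2.0 array per mouse. The genes are Stab1, Stab2, Lyve1, Clec4g, Mrc1, Fcgr2b, Kdr, Eng, Pecam1 and Cdh5, and their probes are those that the platform annotation assigns to exactly 1 symbol, which gave 18 of the 45101 probes, and 10 of the 18194 genes that have such a probe. The mice were 10 weeks old and ate their diet for 3 weeks. The diets were diet restriction (lab chow, with the ration set to 75% of what freely fed mice eat), lab chow, a diet with 60% fructose, a high-fat diet, an atherogenic diet with added cholesterol and cholic acid, a Western diet (42% of calories from fat), a diet deficient in essential fatty acids (EFA), a low n-3 diet with 7% sunflower oil, and the AIN-93 purified diet as control. For the low n-3 group the labels disagree: the description gives sunflower oil, which set the group here, while title and diet tag speak of added DHA. Diet restriction differed from AIN-93 in both the ration and the chow.

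The capillaries of the liver are lined by a thin endothelium with open pores, so that plasma reaches hepatocytes directly. These cells are the body's main scavengers of soluble macromolecules. Stabilins, the mannose receptor and Fc gamma receptor IIb take up hyaluronan, denatured collagen, glycoproteins and small immune complexes from the blood, while VEGF signalling through Kdr and BMP9 signalling through endoglin maintain the sinusoidal phenotype.

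The 4 promoters printed here belong to the 4 markers that passed a test against AIN-93. RefSeq (GRCm38.p6) held a promoter for 7 of the 10 markers, each running from 250 bases before the transcription start to 50 bases after it. Endothelial genes are commonly bound by ETS factors, whose sites have a GGAA core, and capitals mark the ETS-type letters CAGGAA or, on the opposite strand, TTCCTG. The Stab1 promoter lies at chr14:31168592-31168891 on the minus strand, that of Stab2 at chr10:87007893-87008192 on the minus strand, that of Clec4g at chr8:3720602-3720901 on the minus strand and that of Mrc1 at chr2:14229164-14229463 on the plus strand. All are written 5' to 3' on the strand of the gene.
Stab1: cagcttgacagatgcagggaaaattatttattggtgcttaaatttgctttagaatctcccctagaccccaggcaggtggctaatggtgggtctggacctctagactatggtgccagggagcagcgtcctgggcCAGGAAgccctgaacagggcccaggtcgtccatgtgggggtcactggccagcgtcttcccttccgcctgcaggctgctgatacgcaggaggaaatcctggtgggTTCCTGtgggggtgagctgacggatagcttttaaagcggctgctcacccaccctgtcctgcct
Stab2: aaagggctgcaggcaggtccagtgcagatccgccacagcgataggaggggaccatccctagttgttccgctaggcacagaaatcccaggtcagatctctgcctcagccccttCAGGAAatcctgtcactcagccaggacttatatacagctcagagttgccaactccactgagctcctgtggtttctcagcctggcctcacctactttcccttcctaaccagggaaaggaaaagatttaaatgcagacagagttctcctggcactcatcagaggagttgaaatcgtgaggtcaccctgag
Clec4g: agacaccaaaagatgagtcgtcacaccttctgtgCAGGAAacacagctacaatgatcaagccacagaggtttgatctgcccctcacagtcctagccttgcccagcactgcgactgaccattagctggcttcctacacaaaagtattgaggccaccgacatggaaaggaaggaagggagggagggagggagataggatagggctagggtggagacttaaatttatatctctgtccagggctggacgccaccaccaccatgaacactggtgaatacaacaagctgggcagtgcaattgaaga
Mrc1: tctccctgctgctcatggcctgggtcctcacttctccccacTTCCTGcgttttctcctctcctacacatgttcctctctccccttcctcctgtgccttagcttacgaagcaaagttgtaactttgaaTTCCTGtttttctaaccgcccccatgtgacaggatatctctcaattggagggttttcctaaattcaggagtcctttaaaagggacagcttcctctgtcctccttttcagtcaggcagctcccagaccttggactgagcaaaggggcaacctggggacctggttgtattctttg

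The letters CAGGAA stood in the promoters of Stab1, Stab2, Clec4g, Eng and Mrc1, which is 5 of the 7 promoters, and in 30.6% of all 32851 promoters of the same length. Each string was searched on both strands. The overlapping letters AGGAAG stood in the same 5 promoters and in 35.4% of all promoters. The further ETS-type string CCGGAA stood in that of Kdr and in 14.9% of all. The GATA-type letters AGATAA stood in 0 of the 7 and in 11.2% of all, and TGATAA in 0 of the 7 and in 9.05% of all. The Sp1-type letters GGGCGG stood in those of Kdr and Mrc1 and in 35.7% of all. The string shown in capitals was chosen after its matches were counted, and a match is only a run of letters.

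The deposited values are log2 intensities after GCRMA, on which all arrays share a lowest value of 2.29. A probe was kept where its mean exceeded log2(100), called the detection level, in at least 1 diet. This kept 12 of the 18 probes and 8 of the 10 genes, of 10582 probes and 6478 genes kept in all. Kept probes were averaged for each gene. Differences came from 1 limma model of the 27 arrays, with Benjamini-Hochberg adjustment across every kept gene and the 8 diets together, and are given as a percent of AIN-93 with a 95% confidence interval. Adjusted p under 0.05 counts as a change. In whole liver, fewer sinusoidal cells and less RNA per cell cannot be told apart. The 8 comparisons share the same 3 AIN-93 arrays, so they are not independent of each other. Levels are compared between diets for 1 probe or gene, never between genes.

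The other 2 markers were not measured well enough for a comparison. The single probe of Pecam1, an adhesion molecule of all endothelium, lay between 2.298 and 3.350 on the 27 arrays, close to the lowest value. Cdh5 codes for the cadherin of endothelial junctions, and its better probe (1433956_at) lay between 5.53 and 6.75, with 2 of 27 arrays above the detection level. Its other probe (1422047_at) stood at the lowest value on 24 arrays. These are properties of the probes and say nothing of whether the genes were expressed.

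Atherogenic replicate 2 stood apart from its group in the endothelial and stellate lists. With each marker centred on its mean over the 27 arrays, the 8 markers averaged 0.10, -0.62 and 0.30 on the log2 scale in atherogenic replicates 1, 2 and 3, against 0.12, 0.43 and 0.45 on AIN-93. The 17 other sinusoidal genes averaged 0.17, -0.58 and 0.24, the 14 pan-endothelial genes 0.21, -0.78 and 0.22, and the 10 stellate cell genes 0.66, -1.28 and 0.59 on these 3 atherogenic arrays. The macrophage list did not share this, with 1.95, 1.38 and 1.10. The median of kept probes on this array was 8.35, within the range of all arrays (8.22 to 8.38). Diet restriction replicate 1 averaged 0.33 over the markers, against -0.20 and -0.27 in the other restricted mice.

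**Figure D1:**
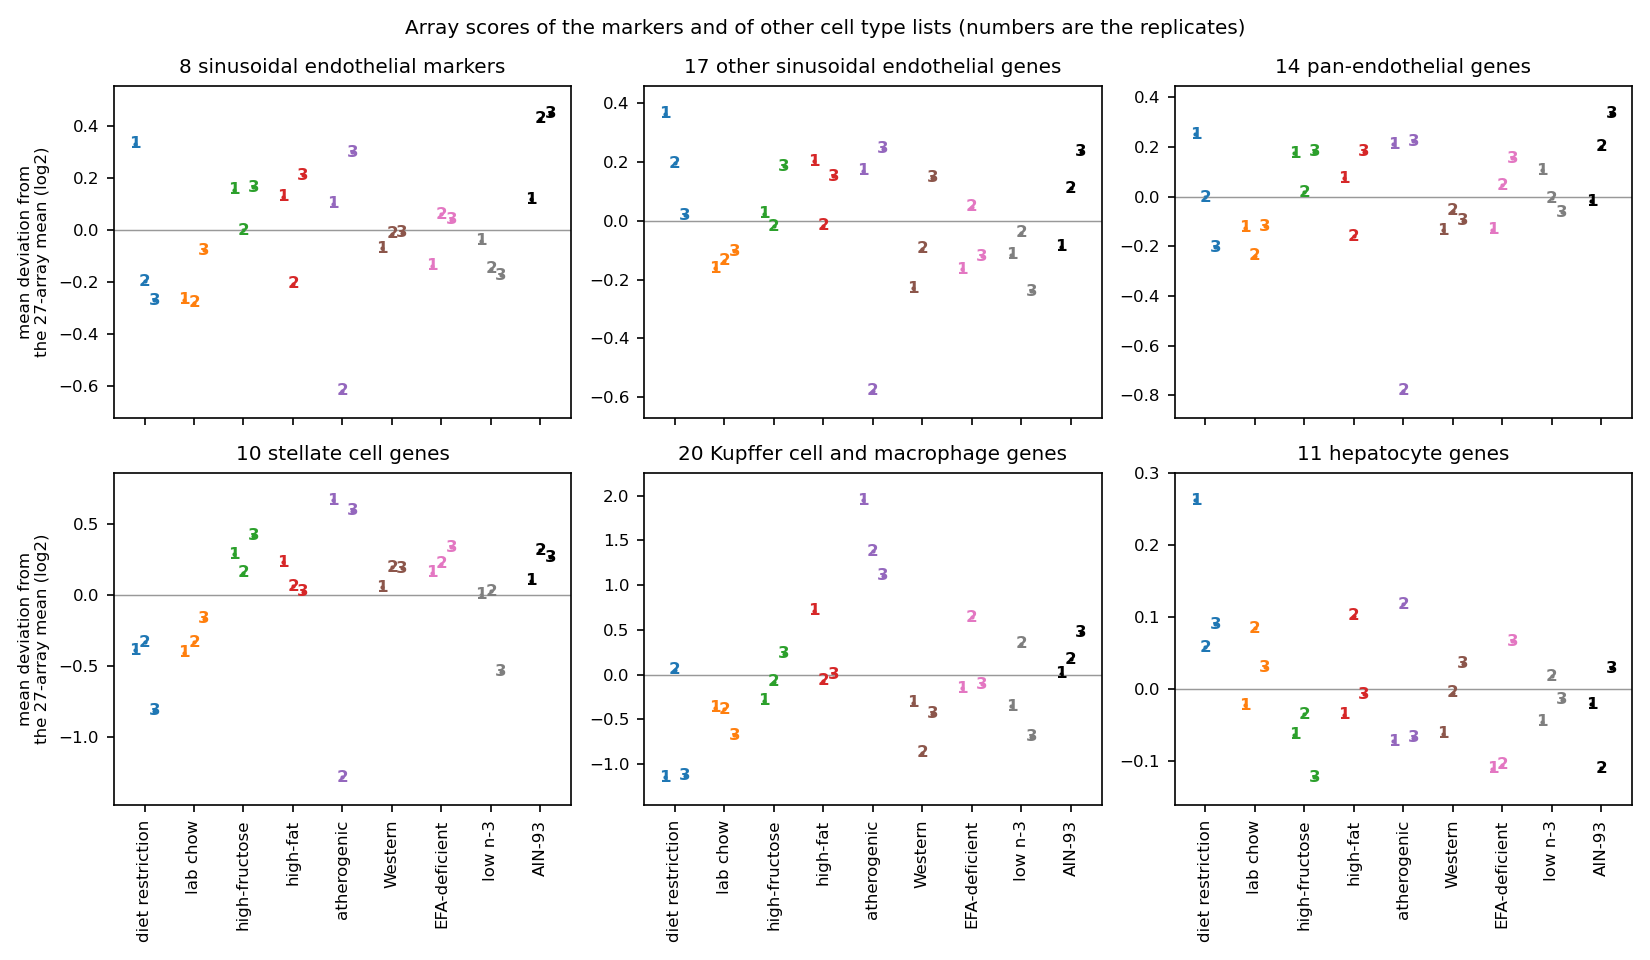
Mean deviation from the 27-array mean on the log2 scale (y axis) for the 8 detected markers and for 5 other lists of cell type genes, by diet (x axis), with each array drawn as its replicate number. Atherogenic replicate 2 is the lowest array for the markers (-0.62), the other endothelial lists and the stellate list, but not for the macrophage list (1.38).

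On each of the 8 diets the median of the sinusoidal markers lay below AIN-93. The medians of all kept genes lay between 96.7% and 102.1% of AIN-93 on these diets. Of 64 values, for 8 genes on 8 diets, 57 were below AIN-93, among them all 8 of Lyve1. The share of such values over all kept genes is not given here. In 7 of them the difference passed the test, and all 7 were lower, in Stab1, Stab2, Clec4g and Mrc1, against 4.73% of all gene and diet pairs called lower and 4.93% called higher. The number of calls was 2 without AIN-93 replicate 2, 4 without AIN-93 replicate 3, lab chow replicate 2 or low n-3 replicate 3, 12 without atherogenic replicate 2, and 11 without diet restriction replicate 1 or without atherogenic replicate 3. Stab1, Clec4g, Mrc1, Eng and Lyve1, which is 5 of 8 genes, had their highest diet mean on AIN-93, whereas 5.03% of all kept genes were highest on AIN-93. Lyve1 passed the detection filter only on AIN-93 and on the EFA-deficient diet, so the filter favoured a high AIN-93 mean for this gene, and without it the count was 4 of 7. The moderated F test over the 9 diets was passed by Stab2 (adjusted p = 0.00174), Stab1 (adjusted p = 0.00474) and Clec4g (adjusted p = 0.0428), beside 71.6% of all kept genes.

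**Figure D2:**
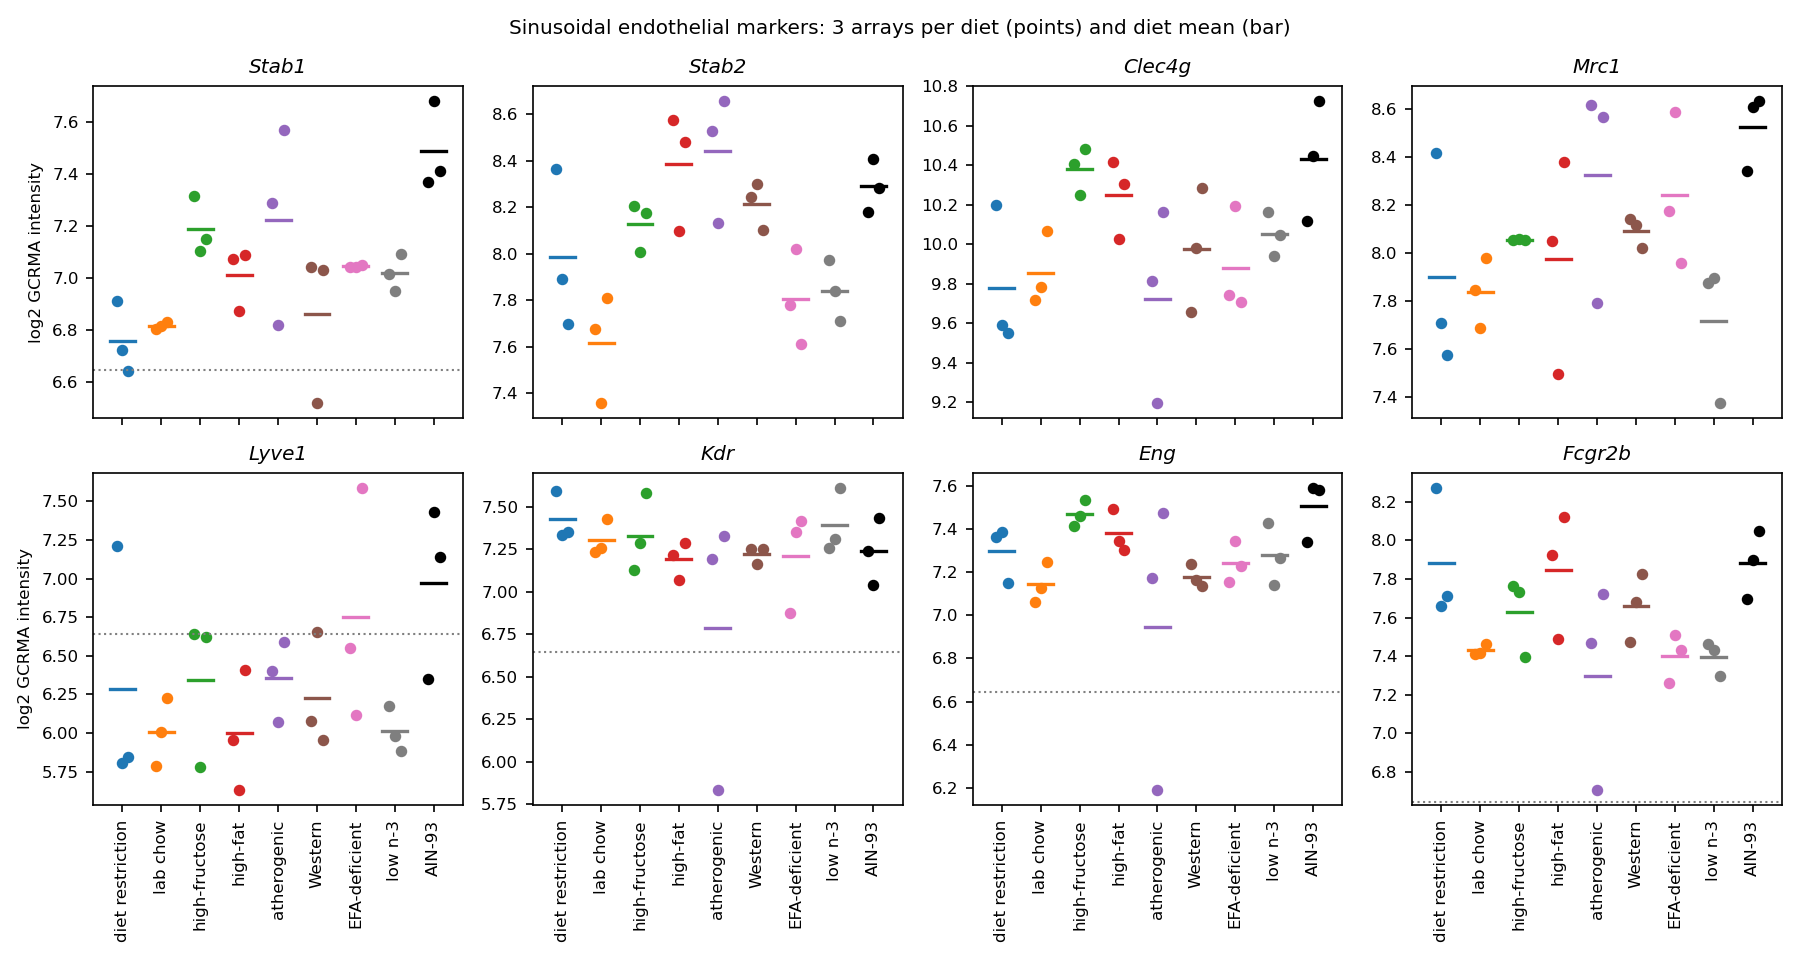
Log2 GCRMA intensity (y axis) of the 8 detected sinusoidal endothelial markers on each of 27 arrays, by diet (x axis), with points for single mice, bars for diet means and a dotted line at the detection level of log2(100). The AIN-93 mean is the highest for Stab1, Clec4g, Mrc1, Eng and Lyve1, and atherogenic replicate 2 is far below its group for Kdr (5.83) and Eng (6.19).

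The scavenger receptors came first in the number of changes. Stab1 codes for stabilin-1, which takes up modified lipoproteins and matrix fragments and is also made by some macrophages, and it was called on more diets than any other marker. Its single probe (1450199_a_at) read 6.91, 6.72 and 6.64 on diet restriction, 6.80, 6.81 and 6.83 on lab chow, 7.04, 6.52 and 7.03 on the Western diet and 7.07, 6.87 and 7.09 on the high-fat diet, against 7.37, 7.68 and 7.41 on AIN-93. All arrays of these 4 diets lay below all AIN-93 arrays.

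Stab1 fell to 60.4% of AIN-93 on diet restriction (48.7 to 74.9, adjusted p = 0.00287), beside 16% of all kept genes called lower on this diet. It fell to 62.8% on lab chow (50.6 to 77.9, adjusted p = 0.00554), beside 2.19% of all kept genes. Both calls stood with each of the 27 arrays left out in turn. On the Western diet Stab1 fell to 64.9% (52.3 to 80.5, adjusted p = 0.00955), beside 4.48% of all kept genes. This call was lost without Western replicate 2 (73.1%, adjusted p = 0.0629) and without AIN-93 replicate 2 (69.3%, adjusted p = 0.0582). On the high-fat diet it fell to 71.9% (58.0 to 89.3, adjusted p = 0.048), beside 3.33% of all kept genes, and the call was lost for 21 of the 27 arrays left out in turn. The low n-3 diet gave a similar value of 72.3% (58.3 to 89.7, adjusted p = 0.0514), and the EFA-deficient diet 73.6% (59.3 to 91.3, adjusted p = 0.0658), with no call. Across the other settings and the arrays left out in turn, low n-3 passed the threshold 7 times and EFA-deficient 4 times. The high-fructose and atherogenic diets gave 81.3% (65.6 to 100.9) and 83.3% (67.2 to 103.4) of AIN-93. On the high-fructose and EFA-deficient diets 0 of the 8 markers were called, beside 2.73% and 2.47% of all kept genes called lower in limma. At an unadjusted p under 0.05 the counts were 0 and 4, all lower, and Dunnett's test within each gene passed 0 on both. The shares of all kept genes at these thresholds are not given here, so these counts cannot be set against them.

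Stab2 codes for stabilin-2, the main hyaluronan receptor of these cells, and its order of diets differed from that of Stab1. Its probe (1419423_at) read 7.68, 7.36 and 7.81 on lab chow, the lowest diet, against 8.18, 8.41 and 8.28 on AIN-93. Stab2 fell to 62.6% of AIN-93 on lab chow (49.2 to 79.8, adjusted p = 0.0123), a call lost without lab chow replicate 2 (68.5%, adjusted p = 0.0661) and without AIN-93 replicate 2 (65.2%, adjusted p = 0.0554). Diet restriction used the same chow, and there the arrays read 8.36, 7.89 and 7.70, with 80.9% of AIN-93 and no call (adjusted p = 0.282). The EFA-deficient arrays (7.78, 8.02 and 7.61) and the low n-3 arrays (7.97, 7.84 and 7.71) also lay below every AIN-93 array, at 71.4% and 73.3%, with adjusted p = 0.0728 and adjusted p = 0.0993. Stab2 was highest on the atherogenic diet, with 8.53, 8.13 and 8.66 (110.9% of AIN-93, 87.1 to 141.3, adjusted p = 0.645). Thus the 2 stabilins shared their lower level on lab chow, and on the high-fat diet Stab1 was called lower whereas Stab2 stood at 106.8% of AIN-93 (83.9 to 136.1). The difference between the 2 genes was not tested.

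Mrc1 codes for the mannose receptor, which clears glycoproteins and collagen fragments and is also a macrophage receptor. Its probe (1450430_at) read 7.88, 7.90 and 7.37 on the low n-3 diet, against 8.34, 8.61 and 8.63 on AIN-93, with no overlap. Mrc1 fell to 57.0% of AIN-93 on the low n-3 diet (40.4 to 80.3, adjusted p = 0.0338), on which 0.726% of all kept genes were called lower. The call was lost without low n-3 replicate 3 (64.1%, adjusted p = 0.133), without AIN-93 replicate 2 (58.6%, adjusted p = 0.0988) and without AIN-93 replicate 3 (59.1%, adjusted p = 0.106). On lab chow Mrc1 stood at 62.0% (43.9 to 87.4, adjusted p = 0.0723) with arrays of 7.85, 7.69 and 7.98, again all below AIN-93. The other 6 diets gave 64.7% to 86.9% of AIN-93 with no call. The diet-restricted mice were split, with 8.42 in replicate 1 against 7.71 and 7.57 in the other replicates, and without replicate 1 Mrc1 passed the test at 54.1% of AIN-93 (adjusted p = 0.0231).

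Stab1, Mrc1 and Fcgr2b are also transcribed in macrophages, so the Kupffer cell and macrophage list is given beside them. Of its 25 genes 20 were kept. Their summed intensity ran from 3382 to 7166 on diet restriction, 4354 to 5729 on lab chow, 4339 to 6040 on the Western diet, 4686 to 9347 on the low n-3 diet, 6537 to 11399 on the high-fat diet and 15268 to 28129 on the atherogenic diet, against 7270 to 9986 on AIN-93. The Kupffer cell lectin Clec4f was called lower on diet restriction (33.2% of AIN-93) and on lab chow (46.8%). On diet restriction 4 of the 20 genes were called lower, beside 16% of all kept genes. On the atherogenic diet 11 of the 20 were called higher, beside 9.03% of all kept genes, such as Cd5l at 449.2% of AIN-93 and Lgals3, which was at least 3.00-fold higher with all AIN-93 arrays below the detection level, while the 3 shared markers Stab1, Mrc1 and Fcgr2b stood at 83.3%, 86.9% and 66.8% of AIN-93. In diet restriction replicate 1 the macrophage list summed to 3564, near the lowest of all arrays, and Mrc1 (8.42) and Fcgr2b (8.27) were the highest of their group. The part of macrophage RNA in the values of these markers was not tested.

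Lyve1 codes for a second hyaluronan receptor, found in sinusoidal and lymphatic endothelium, and its probe (1429379_at) was close to the detection level. It read 7.21, 5.80 and 5.85 on diet restriction, 6.08, 6.66 and 5.96 on the Western diet and 6.55, 6.11 and 7.59 on the EFA-deficient diet, against 6.35, 7.43 and 7.14 on AIN-93. The arrays of these groups overlap, and only 5 of the 27 arrays were above log2(100). On lab chow and on the high-fructose, high-fat, atherogenic and low n-3 diets all 3 arrays lay below that level, so no fold is given, and adjusted p was between 0.109 and 0.34. No diet passed the test. Of the 4 other measured markers of lymphatic endothelium, Pdpn, Mmrn1 and Tbx1 lay between 2.29 and 3.00 on all arrays, and Reln, which is also on the stellate list, lay between 8.02 and 9.96.

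**Figure D3:**
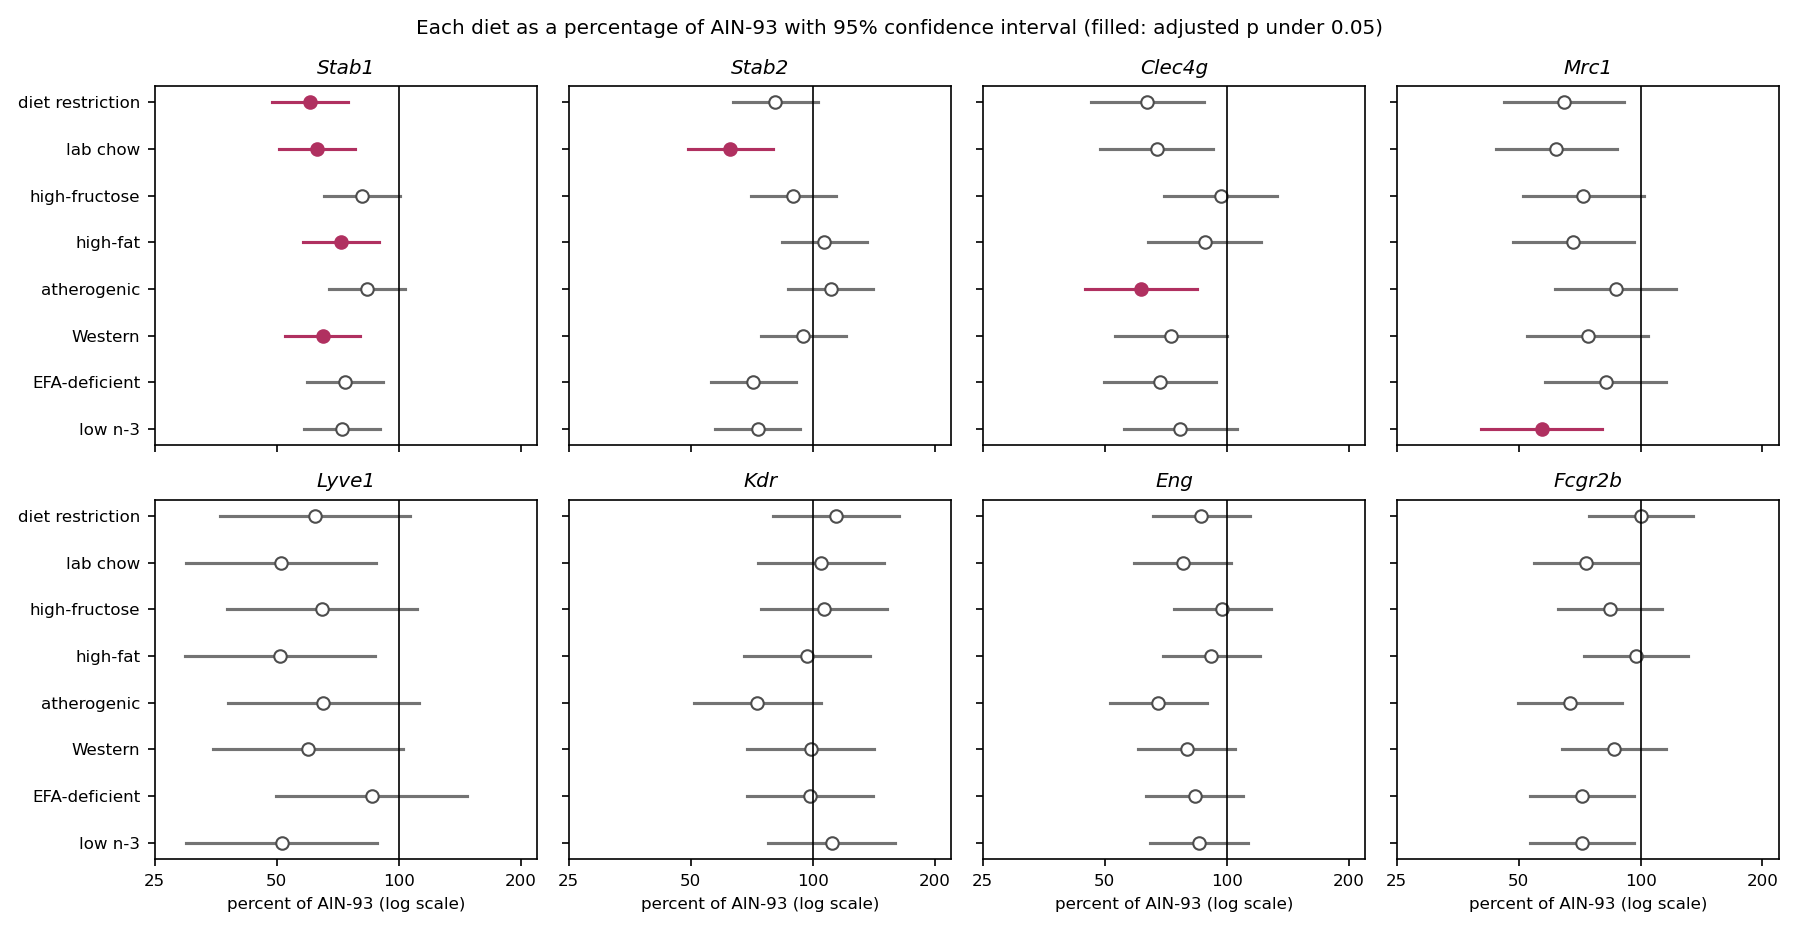
Level of each detected marker on 8 diets (y axis) as a percent of AIN-93 (x axis, log scale), with the limma estimate as a point and its 95% confidence interval as a line, filled where the adjusted p was under 0.05. The 7 filled points are all left of 100, 4 of them in Stab1. Lyve1 lay below the detection level on all lab chow, high-fructose, high-fat, atherogenic and low n-3 arrays. Its points for these diets are not sizes of change.

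The lectin and Fc receptors formed the next group. Clec4g, or LSECtin, is a C-type lectin made almost only by sinusoidal endothelium in the mouse liver. Its kept probe (1427428_at) read 9.82, 9.20 and 10.16 on the atherogenic diet, against 10.12, 10.45 and 10.72 on AIN-93, so that 1 atherogenic array reached into the AIN-93 range. Clec4g fell to 61.4% of AIN-93 on the atherogenic diet (44.6 to 84.5, adjusted p = 0.0479), on which 5.88% of all kept genes were called lower. Without atherogenic replicate 2 it stood at 73.7% with adjusted p = 0.224, and the call was lost for 20 of the 27 arrays left out in turn. Diet restriction gave 63.8% (46.3 to 87.8, adjusted p = 0.0692), with arrays of 10.20, 9.59 and 9.55, and passed the test without its replicate 1 (55.1%, adjusted p = 0.0221). Lab chow gave 67.2% (48.8 to 92.5, adjusted p = 0.111), with arrays of 9.72, 9.78 and 10.07 that all lay below AIN-93. The high-fructose diet was nearest to AIN-93, at 96.7% (70.2 to 133.1). The other Clec4g probe (1431575_at) was at the lowest value on 24 arrays.

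Fcgr2b codes for the inhibitory Fc gamma receptor, through which sinusoidal endothelium removes small immune complexes, and it is measured by 4 kept probes. Its mean level was 8.27, 7.66 and 7.71 on diet restriction, 7.41, 7.42 and 7.46 on lab chow and 7.47, 6.71 and 7.72 on the atherogenic diet, against 7.70, 7.90 and 8.05 on AIN-93. No diet passed the gene-level test. The lowest value was 66.8% of AIN-93 on the atherogenic diet (49.7 to 89.8, adjusted p = 0.0785), or 82.0% without atherogenic replicate 2 (adjusted p = 0.366). Probe 1455332_x_at fell to 63.2% of AIN-93 under atherogenic feeding (adjusted p = 0.0246), beside 5.93% of all kept probes. Under low n-3 feeding its 3 arrays were all below the detection level, and it was at least 1.42-fold lower than on AIN-93 (adjusted p = 0.03), beside 0.747% of all kept probes. The other 3 probes gave 64.7% to 70.4% and 69.7% to 76.7% on these diets with no call, and no difference between probes was tested. Of 5 other Fc receptor genes 4 were kept. On the atherogenic diet the activating receptors Fcgr4 (at least 1.31-fold, adjusted p = 0.00324) and Fcgr3 (at least 2.09-fold, adjusted p = 0.00285), both below the detection level on all AIN-93 arrays, and their signalling chain Fcer1g (271.4% of AIN-93) were called higher, beside 9.03% of all kept genes. On the high-fat diet Fcgrt, the neonatal Fc receptor, was called higher (149.99%). On the Western diet Fcgr3 was called lower, with all arrays of both diets below the detection level. Fcgr2b is also a B cell receptor, and the 7 measured B cell markers lay between 2.29 and 3.47 on all arrays.

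Neither signalling receptor passed the test on any diet with all arrays. Kdr codes for VEGF receptor 2, through which VEGF keeps the sinusoidal endothelium open. Its probe (1449379_at) read 7.19, 5.83 and 7.33 on the atherogenic diet and 7.59, 7.34 and 7.35 on diet restriction, against 7.24, 7.04 and 7.43 on AIN-93. Kdr was at 73.1% of AIN-93 on the atherogenic diet (51.0 to 104.6, adjusted p = 0.284) and at 101.6% without atherogenic replicate 2. On the other 7 diets it lay between 96.9% and 114.0% of AIN-93, and no diet passed the test. Of the 14 other genes of the VEGF and angiopoietin list 5 were kept, and 1 was called, the VEGF co-receptor Nrp1, at 46.8% of AIN-93 on diet restriction (30.8 to 70.9), beside 16% of all kept genes called lower.

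Eng codes for endoglin, the endothelial co-receptor for BMP9, and has 2 kept probes. Its mean was 7.17, 6.19 and 7.47 on the atherogenic diet and 7.06, 7.13 and 7.25 on lab chow, against 7.34, 7.59 and 7.58 on AIN-93. The atherogenic diet gave 67.8% of AIN-93 (51.4 to 89.4, adjusted p = 0.0702), or 88.1% without replicate 2 (adjusted p = 0.356). Lab chow gave 77.9% (59.1 to 102.8, adjusted p = 0.267) and the Western diet 79.7% (60.4 to 105.1, adjusted p = 0.32), both with all arrays below those on AIN-93. Without atherogenic replicate 2 both passed the test, lab chow with adjusted p = 0.029 and Western with adjusted p = 0.0473. Without atherogenic replicate 3 the atherogenic diet passed it as well (56.5%, adjusted p = 0.00474). Of the 21 other genes of the BMP9, endoglin and SMAD list 14 were kept. On diet restriction the BMP targets Id2 (12.3% of AIN-93) and Id3 (13.8%) were called lower and the TGF-beta receptor Tgfbr2 higher (176.0%). Tgfbr3, or betaglycan, was called lower on lab chow (56.3%), the atherogenic diet (43.0%) and the Western diet (58.6%), as was Hamp2, a hepcidin gene of hepatocytes, at 35.0%, 32.7% and 40.0%. On the EFA-deficient diet Smad1, a BMP signal transducer, was called higher (135.8%).

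By diet, the group median was lowest on lab chow with all arrays. The median over the 8 detected markers was 65.0% of AIN-93 there, against a median of 96.7% over all 6478 kept genes, and in 7 of the 8 genes (all but Kdr) the 3 chow arrays lay below all 3 AIN-93 arrays, where 15.1% of all kept genes did so. On the low n-3 diet, the diet with the fewest genes called lower, the median was 72.8% and 5 of 8 genes had arrays wholly below AIN-93 (10.3% of all kept genes). Lyve1 is among the genes counted on lab chow and on the low n-3 diet, and it enters each group median. The detection filter favoured a high AIN-93 mean for this gene, so it adds no support to these counts. The other medians were 72.3% on diet restriction, 70.4% on the atherogenic diet, 76.8% on the Western diet, 77.7% on the EFA-deficient diet, 86.7% on the high-fructose diet and 89.97% on the high-fat diet, while those of all kept genes lay between 97.0% and 102.1%. Without atherogenic replicate 2 the atherogenic median was 92.0%, and without diet restriction replicate 1 that of diet restriction was 63.7%, below lab chow. With a second quantile normalization the atherogenic and lab chow medians were both -0.59 on the log2 scale. Arrays wholly below AIN-93 were seen for 1 of 8 genes on diet restriction (25.6% of all kept genes), 2 on the high-fructose diet (15.3%), 1 on the high-fat diet (16.3%), 0 on the atherogenic diet (15.4%), 3 on the Western diet (15.1%) and 3 on the EFA-deficient diet (11.7%). The macrophage list had a median of 50.5% of AIN-93 on diet restriction and 61.0% on lab chow, and the stellate list 58.9% and 68.5% on these diets. The hepatocyte list had medians of 95.01% to 103.8% on the 8 diets. Neighbouring diets in the order of each marker's means overlapped in their arrays, with the exception of the high-fructose and EFA-deficient diets for Stab1.

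Diet restriction and lab chow share their food and differ in the ration. None of the 8 markers passed the test between them, at an own adjustment over all kept genes, in which limma called 19.2% of genes higher and 17.6% lower. At an unadjusted p under 0.05, 2 of the 8 were higher and 0 lower, and the share of all kept genes at that threshold is not given here. Stab2 stood at 129.2% of lab chow (101.4 to 164.5, adjusted p = 0.0912) and Fcgr2b at 136.8% (101.8 to 183.8, adjusted p = 0.0901). For Fcgr2b the restricted arrays all lay above the chow arrays, as did those of 25.3% of all kept genes, and probe 1435476_a_at alone was called higher (156.5%, adjusted p = 0.0283), beside 18.2% of all kept probes. Fcgr2b passed the test without atherogenic replicate 2 (136.8%, adjusted p = 0.0346), and Stab2 without diet restriction replicate 3 (142.6%, adjusted p = 0.0341). Without diet restriction replicate 1 they stood at 119.5% (adjusted p = 0.391) and 113.3% (adjusted p = 0.449). The median over the markers was 109.95% of lab chow with all arrays and 96.7% without diet restriction replicate 1, so that its direction turned on that array.

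The atherogenic and Western diets are both rich in fat and sucrose, and the labels name cholesterol and cholic acid for the atherogenic diet alone. The labels do not state that the Western diet held no cholesterol. None of the 8 markers passed the limma test between these diets, where 11.3% of all kept genes were called higher and 6.5% lower. At an unadjusted p under 0.05, 1 marker was higher, and the share of all kept genes at that threshold is not given here. Stab1 stood at 128.5% of the Western diet (103.5 to 159.4, adjusted p = 0.0992), and without atherogenic replicate 2 at 147.9% (adjusted p = 0.00988), which passed the test, as did 8.34% of all kept genes in that direction. Of the macrophage list 18 of 20 genes were called higher in this comparison. Kdr stood at 73.9% (51.6 to 105.9) with all arrays and at 102.8% without atherogenic replicate 2. The median over the markers was 96.4% with all arrays and 115.4% without that array.

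The markers varied together from mouse to mouse. Of the 28 pairs of detected markers, 27 correlated positively over the 27 arrays, with a median Pearson r of 0.48 (-0.08 to 0.77). With the diet means removed, all 28 were positive, with a median of 0.59 (0.27 to 0.89), highest between Stab2 and Mrc1. Without atherogenic replicate 2 all 28 within-diet pairs stayed positive, with a median of 0.38 (0.12 to 0.86). The arrays share diets and processing, so these are descriptions with no test. Over all arrays Kdr was the least tied to the scavenger receptors (r = -0.08 with Stab2, 0.08 with Mrc1 and 0.10 with Stab1) and the most tied to Eng (r = 0.75).

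**Figure D4:**
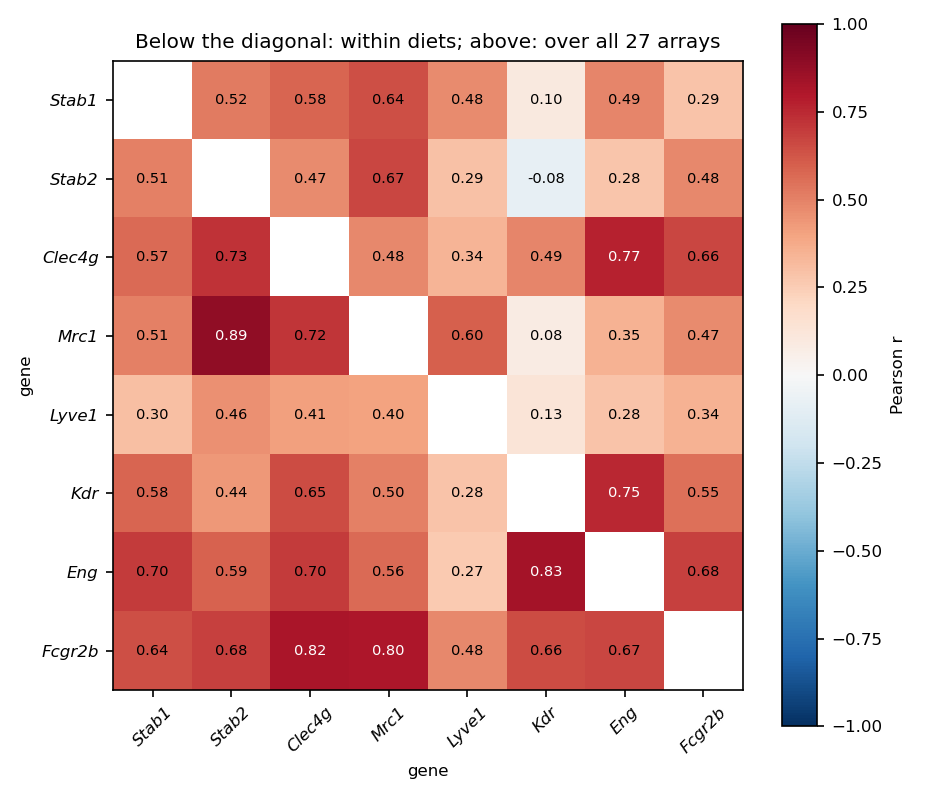
Pearson r between pairs of detected markers (both axes are genes), over all 27 arrays above the diagonal and with diet means removed below it, on a colour scale between -1 and 1. Within diets each pair is positive, highest for Stab2 and Mrc1 (0.89), and over all arrays only Stab2 with Kdr is below 0 (-0.08).

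Several of the genes whose pattern was most like the mean of the markers are known vascular genes. Over 27 arrays the 10 nearest of all kept genes were Esam, Bgn, Ets1, Slc43a3, Tek, Calcrl, Aqp1, Colec11, Abcc9 and Colec10, with r between 0.77 and 0.80. Esam is an endothelial adhesion molecule, Ets1 an ETS factor, Tek the angiopoietin receptor, Calcrl a receptor of adrenomedullin and Aqp1 a water channel of endothelium, while Colec10 and Colec11 are collectins that stellate cells express in the liver. With all arrays each marker was centred and divided by its standard deviation before averaging. Without atherogenic replicate 2 the markers were only centred, and the r of these 10 genes then lay between 0.63 and 0.75. Esam had rank 1 there, while Colec11, Abcc9, Colec10, Aqp1 and Tek had ranks 11, 12, 16, 19 and 21. The r values with and without that array thus differ in the marker mean as well, and the effect of the array alone was not tested. For single markers the nearest genes were Plxnc1 (r = 0.90) and Dnase1l3 (0.82) for Clec4g, Ptprb (0.85) and Ehd3 (0.85) for Kdr, Ecm1 (0.91) and Cyp4b1 (0.83) for Eng, and Cyp4b1 (0.78) and Slc43a3 (0.76) for Fcgr2b. Those of the scavenger receptors were Tpm4 (0.73) and Gimap4 (0.71) for Stab1, Flii (0.73) and Xpc (0.72) for Stab2, Ets1 (0.75) and Sema6d (0.72) for Mrc1, and Cpd (0.74) and Prkar1a (0.64) for Lyve1.

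Genes of the other endothelial lists were called in both directions. These are values of whole liver, and the part of other cell types in them was not tested. Of 28 other genes of sinusoidal endothelium 17 were kept, with a median of 79.4% of AIN-93 on lab chow, 81.4% on the atherogenic diet and 95.2% on diet restriction. On the atherogenic diet Ntn4, a netrin (47.8%), Cyp4b1 (52.4%) and Dnase1l3, a secreted nuclease (at least 1.16-fold), were called lower, and the protease Lgmn (220.3%) and the adhesion molecule Icam1 (at least 1.13-fold) higher. The bounds are given where all arrays of 1 of the 2 diets lay below the detection level. The lectin Clec1b was called lower on lab chow (52.9%) and the Western diet (56.4%). Hpgd, a prostaglandin dehydrogenase, was called higher on diet restriction (164.1%) and lab chow (153.6%), and Aass, an enzyme of lysine breakdown, on diet restriction (189.3%) and the Western diet (140.7%), where the fatty acid receptor Cd36 was higher as well (344.7%). Of 47 pan-endothelial genes on the array 14 were kept. Epas1, which codes for HIF-2 alpha and is also made by hepatocytes, was called lower on lab chow (62.9%), the high-fat diet (69.4%), the atherogenic diet (69.3%) and the EFA-deficient diet (71.6%). On diet restriction the sphingosine 1-phosphate receptor S1pr1 (at least 1.30-fold) and Nrp1 were lower and Adgrf5 was higher (159.4%).

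Among 16 other scavenger and clearance receptors 10 were kept, and on the atherogenic diet 3 were called higher, the HDL receptor Scarb1 (257.9% of AIN-93), Scarb2 (144.3%) and the hyaluronan receptor Cd44 (at least 1.62-fold, below the detection level on all AIN-93 arrays), with 0 lower. Of all kept genes 9.03% were called higher and 5.88% lower on this diet. On that diet Stab2, a hyaluronan receptor of the endothelium, stood at 110.9% with no call. Asgr2, a subunit of the asialoglycoprotein receptor of hepatocytes, was lower on the Western (72.4%) and EFA-deficient diets (67.9%), and Scarb1 on the EFA-deficient diet (66.7%). Of 15 junction partners of Cdh5 10 were kept, and only Ctnna1, alpha-catenin, was called against AIN-93, higher on the atherogenic diet (131.1%). Of 15 stellate cell genes 10 were kept, and only the collagen Col3a1 was called against AIN-93, lower on diet restriction (22.7%), beside 16% of all kept genes. The summed intensity of these 10 stellate genes ran from 4064 to 6063 on diet restriction, 4087 to 5125 on lab chow and 4145 to 6027 on the low n-3 diet, against 6134 to 7380 on AIN-93, and its part in the marker values was not tested.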

How the data were processed

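Livers of mice on 9 diets, with n = 3 each, were hybridised to 1-colour Affymetrix Mouse 430 2.0 arrays, and the authors deposited log2 intensities preprocessed with the GCRMA package. GCRMA and limma are named in the submitters' notes, with versions not given in the sources used here. No raw scans were used, so background correction could not be varied. Nothing in the labels gives scan or hybridisation batches.

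The platform annotation gave 932 probes with several symbols and 9211 with none, which were left out. Column medians ran from 2.42 to 2.48, and 34.9% to 38.0% of values per array stood at the lowest value. The number of arrays limits the precision. Differences were fitted with limma 3.58.1 in R 4.3.3, with lmFit and eBayes over all 27 arrays, and promoters and figures were handled in Python 3.11.15 (numpy 2.4.6, matplotlib 3.10.9). Every adjusted p in the text comes from limma with Benjamini-Hochberg adjustment, at a threshold of 0.05. The 2 comparisons without AIN-93 each had an adjustment of its own. The fit was tested on simulated data. The 10 markers and all gene lists were chosen with earlier results of these data known. All 10 markers were described in every comparison, other lists by their counts and by at most 4 called genes each, and similar genes by Pearson r to the mean of the markers. The alternatives were 11 other settings and leaving out each of the 27 arrays.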

Additional observations from a re-analysis of the deposited data

How the results depend on the processing

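The 7 called differences were run under 262 alternatives, of which 197 kept the call, 65 lost it and 0 turned its direction. Of 2716 alternatives for differences that were not called, 53 passed the threshold. The count of calls against AIN-93 was 28 with array weights, 4 with a fit of the compared diets alone, 3 with a filter at log2(200) and 1 with Dunnett's test adjusted by Benjamini-Hochberg. Array weights also gave 1 call between the atherogenic and Western diets and 6 genes in the F test, and gave the lowest weights to diet restriction replicate 1 (0.36) and atherogenic replicate 2 (0.39). The 8 calls among probes became 32 with array weights, 5 with no filter, 5 with the compared diets alone and 3 with a filter at log2(200). With no filter the lab chow median was -0.36 on the log2 scale, against -0.62 with it. Without the filter Pecam1 and Cdh5 enter the median. The probes of Lyve1, Clec4g and Fcgr2b that lay under the detection level then also enter the averages of these genes. With 1 array left out, calls against AIN-93 ranged from 2 to 12, genes in the F test from 2 to 6, calls among probes from 3 to 14, and calls in each of the other 2 comparisons from 0 to 1. The atherogenic median then ranged from -0.73 to -0.12 against AIN-93 and from -0.23 to 0.21 against the Western diet, and that of diet restriction against lab chow from -0.05 to 0.23. Nothing in the labels ties replicate numbers across diets, and they were not used to pair the mice. Arrays of the same number in different diets correlated between -0.27 and 0.41 (mean 0.04, against -0.02 for different numbers), and 17 of 27 arrays were nearest to their own number, which is a hint from the data, not the design. With the replicate block there were 8 calls against AIN-93 and 10 among probes. The causes of these changes were not tested.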
